A study of Mus musculus with 4 samples.

Results

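Described here are 8 genes that encode transcription factors of the myeloid lineage. They are Spi1 (which encodes PU.1 and stands on the array under its older symbol Sfpi1), Cebpa, Cebpb, Cebpd and Cebpe of the C/EBP family, the zinc finger repressor gene Gfi1, and the interferon regulatory factor genes Irf4 and Irf8. They were chosen by gene symbol, with earlier results of these data known. They make up 8 of 24277 genes and 8 of 55681 probes, with 1 probe and 1 spot per gene on each array. RNA came from progenitors sorted fresh from adult mouse bone marrow, and each of 4 groups had 1 single-colour Agilent array: CLP from SFRP5-transgenic mice (SFRP5 CLP), CLP from their WT littermates (WT CLP), LSK from SFRP5-transgenic mice (SFRP5 LSK) and LSK from WT littermates (WT LSK). LSK cells carry no lineage markers and have high c-kit and Sca-1. This gate holds stem cells and multipotent progenitors. The CLP gate takes lineage-negative cells with low c-kit, low Sca-1 and IL7Rα, and enriches for common lymphoid progenitors. SFRP5 is a secreted Wnt antagonist, and the series asked which genes its expression regulates. The sources used here do not say which promoter drives the transgene, nor the strain, sex or number of mice behind a sample.

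Myeloid identity is built up in steps by these factors. PU.1 opens regulatory regions of myeloid and B cell genes, and its amount bears on which of these fates a progenitor takes. C/EBPα acts with it to form granulocyte-monocyte progenitors, C/EBPε is needed for the late granule proteins of neutrophils and eosinophils, and C/EBPβ and C/EBPδ serve inflammatory and emergency programmes. GFI1 represses monocytic genes and favours neutrophils, whereas IRF8, with PU.1, favours monocytes and dendritic cells and restrains neutrophil formation. IRF4, its close relative, is best known in B cells, plasma cells and dendritic cells.

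Each level below is the log2 of the scanner's processed intensity minus the 75th percentile of the same array, so that 0 stands at that percentile. A level was taken as measured where the scanner software flagged the spot as well above background. Levels are compared between arrays for 1 probe at a time, never between probes. With 1 array per group there is no replicate check and no test, and "higher" and "lower" describe these 4 arrays. The scanner's own error was 0.204 for a difference of 2 bright log2 levels, and it covers neither cells, mice nor amplification. A difference was counted when it reached 2-fold. Where a gene was well above background on 1 array alone, the fold is a lower bound, taken against the lowest level that passed the flag on the other array (between -4.91 and -4.74) or the gene's own level there if that was higher.

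All 4 arrays lie on 1 slide, and between 65.3% and 70.1% of probes were well above background, with the highest share in WT LSK. The Sfrp5 probe stood at -0.00 in SFRP5 CLP, -0.02 in WT CLP, -0.31 in SFRP5 LSK and -0.23 in WT LSK, so it did not separate the genotypes, and the sources used here do not say whether it matches the transgene. Xist, the RNA of the inactive X chromosome, was well above background on both SFRP5 arrays and on neither WT array, so genotype and Xist expression cannot be told apart. Ddx3y, a gene of the Y chromosome, was well above background on all 4 arrays, at -1.55 in SFRP5 CLP, -0.02 in WT CLP, -1.85 in SFRP5 LSK and -0.50 in WT LSK. It was thus lower in SFRP5 than in WT in both sorts. The sources used here do not give sex, so a different sex make-up of the 2 genotypes cannot be told apart from genotype. The gate genes followed the sorts, with Kit and Ly6a (Sca-1) lower and Il7r higher in CLP in both genotypes. The CLP arrays also carried erythroid markers (median level 4.24 in SFRP5 CLP and 4.90 in WT CLP, against 0.35 in SFRP5 LSK and 0.32 in WT LSK) and eosinophil markers (5.47 in SFRP5 CLP and 5.52 in WT CLP, against 0.36 in SFRP5 LSK and -0.87 in WT LSK). In bulk RNA, a different share of cells and a different amount of RNA per cell cannot be told apart.

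Start-site sequences from RefSeq (GRCm38.p6) were at hand for 5 of the 8 genes. The 4 shown belong to factors that passed 2-fold below: Cebpa and Cebpb between genotypes in LSK, Irf4 and Irf8 between the sorts. Each sequence is the 250 bases upstream of the start of the gene, 5′ to 3′ on its own strand. Cebpa lies at chr7:35119043-35119292 (plus strand), Cebpb at chr2:167688665-167688914 (plus strand), Irf4 at chr13:30748983-30749232 (plus strand) and Irf8 at chr8:120736108-120736357 (plus strand). Capitals mark matches to any of 6 motifs, searched on both strands. These were TATAAA, the box near many start sites, the motif of C/EBP factors, TTGCNNAA, and that of PU.1, written GAGGAA. The others were the element of IRF factors, GAAANNGAA, the joint element of ETS and IRF factors, GGAANNGAA, and AAATCA, the core of the motif that GFI1 binds. No matches overlapped in these windows.
Cebpa: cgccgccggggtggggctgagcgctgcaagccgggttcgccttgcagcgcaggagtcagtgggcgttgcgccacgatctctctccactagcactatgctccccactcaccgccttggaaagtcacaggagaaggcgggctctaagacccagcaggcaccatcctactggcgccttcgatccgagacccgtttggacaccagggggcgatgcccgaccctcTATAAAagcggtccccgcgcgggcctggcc
Cebpb: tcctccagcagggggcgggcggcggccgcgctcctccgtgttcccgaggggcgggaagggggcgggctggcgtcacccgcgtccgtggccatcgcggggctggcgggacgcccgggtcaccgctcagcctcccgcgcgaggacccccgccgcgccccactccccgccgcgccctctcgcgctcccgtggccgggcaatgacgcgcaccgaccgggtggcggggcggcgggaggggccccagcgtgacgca
Irf4: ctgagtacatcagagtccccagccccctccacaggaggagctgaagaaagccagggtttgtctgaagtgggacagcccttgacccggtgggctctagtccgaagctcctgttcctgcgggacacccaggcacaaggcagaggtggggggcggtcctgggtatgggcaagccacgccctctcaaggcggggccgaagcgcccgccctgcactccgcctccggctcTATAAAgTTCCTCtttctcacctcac
Irf8: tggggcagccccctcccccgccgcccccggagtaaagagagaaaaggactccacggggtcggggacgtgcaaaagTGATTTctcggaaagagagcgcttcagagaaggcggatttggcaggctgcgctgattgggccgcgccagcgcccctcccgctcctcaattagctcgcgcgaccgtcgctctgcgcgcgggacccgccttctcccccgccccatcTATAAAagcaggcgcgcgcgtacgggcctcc

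TATAAA was found close to the start in Cebpa (30 to 25 bases before it), Irf8 (31 to 26) and Irf4 (26 to 21), and in 12.4% of the 32851 upstream windows of this length. The Irf4 window also held GAGGAA on the reverse strand, printed as TTCCTC, 19 to 14 bases before the start, a motif present in 23.3% of windows. In Irf8 the motif AAATCA was matched on the reverse strand, printed as TGATTT, 175 to 170 bases before the start (12.4% of windows). The Cebpb window held none of the motifs and was 81.6% G and C. Gfi1 had 1 match to TTGCNNAA, 143 to 136 bases before its start (9.56% of windows), and the IRF element (7.13%) and the joint element (6.99%) were matched in none of the 5. The motifs were picked with these sequences in view, and a match describes letters in a window and is not a binding site.

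**Figure D1:**
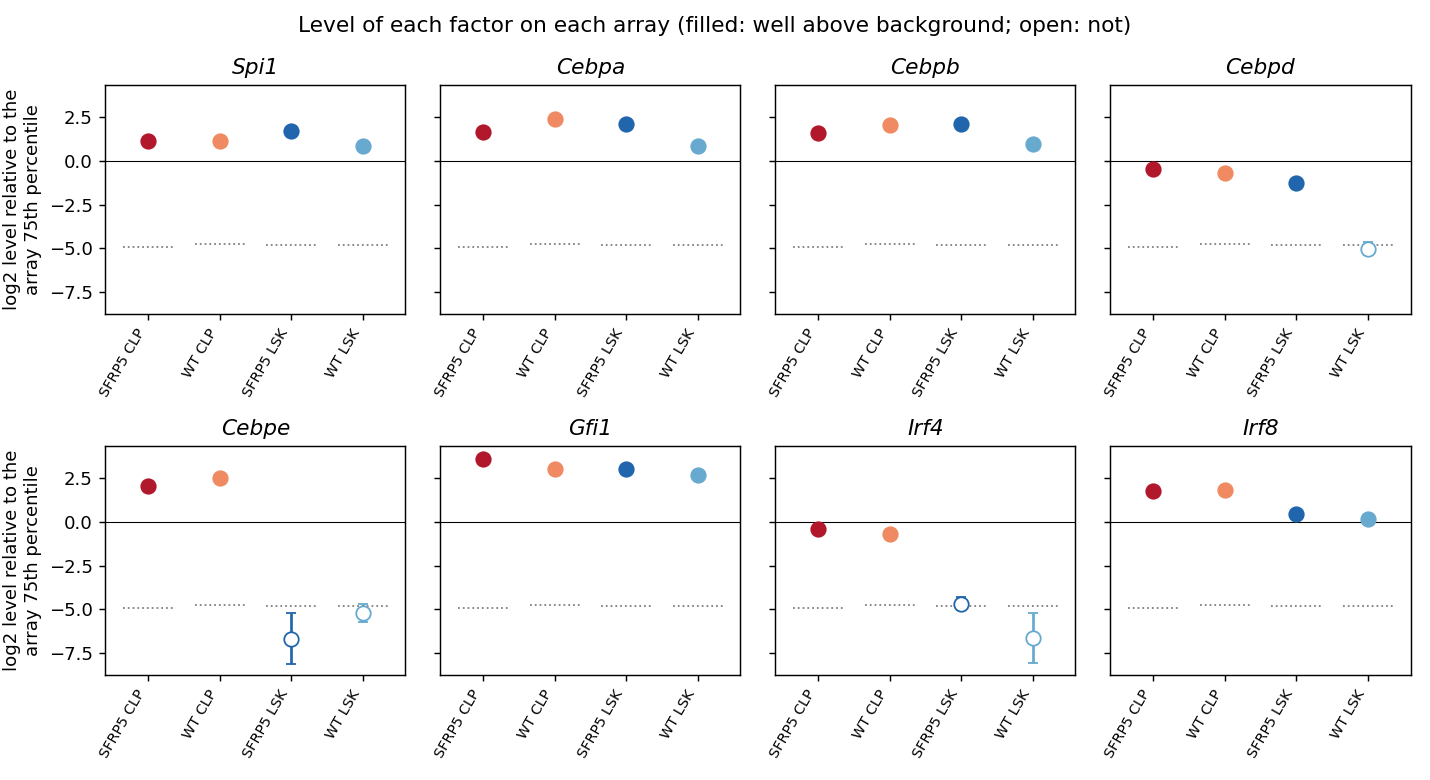
Level of each factor on the 4 arrays, in log2 units over the array's 75th percentile (zero line). Filled points are well above background and open points are not; bars are the scanner's error, and the dotted lines give the lowest level well above background on each array. Cebpe and Irf4 are filled in both CLP arrays and open in both LSK arrays, and Cebpd is open in WT LSK alone.

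All 8 factors were well above background on both CLP arrays. In SFRP5 LSK 6 were, all but Cebpe and Irf4, and in WT LSK 5 were, since Cebpd was also below the flag there. The WT LSK array had the lowest level of Spi1, Cebpa, Cebpb, Cebpd, Gfi1 and Irf8. It is used both in the genotype comparison in LSK and in the comparison of sorts in WT, so these comparisons are not independent of each other.

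Between genotypes in LSK, all 5 factors measured on both arrays were higher in SFRP5, with a median log2 difference of 0.81, against 0.02 over all 16125 genes measured, of which 8281 were above 0. Cebpa and Cebpb reached 2-fold, that is 2 of 5, where 13.7% of all genes reached it in either direction and 6.57% were 2-fold higher. With Cebpd, higher by a bound, 3 of 6 factors measured or bounded reached 2-fold, and the share over all genes counted in this way was 7.17%. Cebpe and Irf4 were below background on both arrays, so they have no difference in LSK. In CLP 0 of 8 factors reached 2-fold between genotypes, near the share of 8.56% of 15941 genes that did (4.25% higher). The differences ran from -0.73 for Cebpa to 0.61 for Gfi1. There 4 factors were above 0 and 4 below it. The median was -0.02 (-0.04 over all genes), turning positive under normexp, quantile and the authors' deposited scaling.

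Immediate early genes, which respond quickly to stimuli and to cell handling, moved with genotype in both sorts. In CLP 6 of 8 reached 2-fold upwards in SFRP5 (median 1.46), in LSK 6 of 8 did (median 1.22), and none was 2-fold lower in either. Over all genes 4.25% in CLP and 6.57% in LSK were 2-fold higher. The part of the immediate early genes in the genotype differences of the factors was not tested. The same holds for the marker lists of myeloid cells and their progenitors in LSK. Eosinophil markers had 4 of 6 members higher by 2-fold or more on the SFRP5 LSK array and none lower (median 1.67), and granulocyte-monocyte progenitor markers had 2 of 8 higher and 1 lower (median 0.60). Neutrophil markers had 3 of 7 measured members higher and 1 lower (median 0.40, from 0.22 to 0.70 with other scalings). Monocyte and macrophage markers had 2 of 11 higher and 2 lower, and their median of 0.59 was 0.13 with normexp and 0.95 with quantile, with 2 to 4 higher and 1 to 2 lower over the scalings.

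Between the sorts in SFRP5 mice, Irf8 reached 2-fold as 1 of 6 factors measured, where 22.5% of 15710 genes reached it in either direction and 11.5% were 2-fold higher in CLP. Cebpe and Irf4 were higher by a bound, which makes 3 of 8 (13% of genes). The median over the 6 measured factors was 0.07 (0.02 over all genes) and was negative with quantile (-0.13), cyclic loess (-0.10) and the authors' scaling (-0.11). In WT mice Cebpa, Cebpb and Irf8 reached 2-fold as 3 of 5 measured, where 32.1% of 16015 genes reached it and 17.8% were 2-fold higher in CLP. Cebpd, Cebpe and Irf4 were higher by a bound, which makes 6 of 8 (17.5% of genes). Cebpb fell below 2-fold with normexp, quantile, cyclic loess and the authors' scaling, which left 5 of 8. The median over the 5 measured factors was 1.08 in WT (0.67 in the authors' scaling), against 0.02 over all genes. No factor was 2-fold lower in CLP in either genotype.

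**Figure D2:**
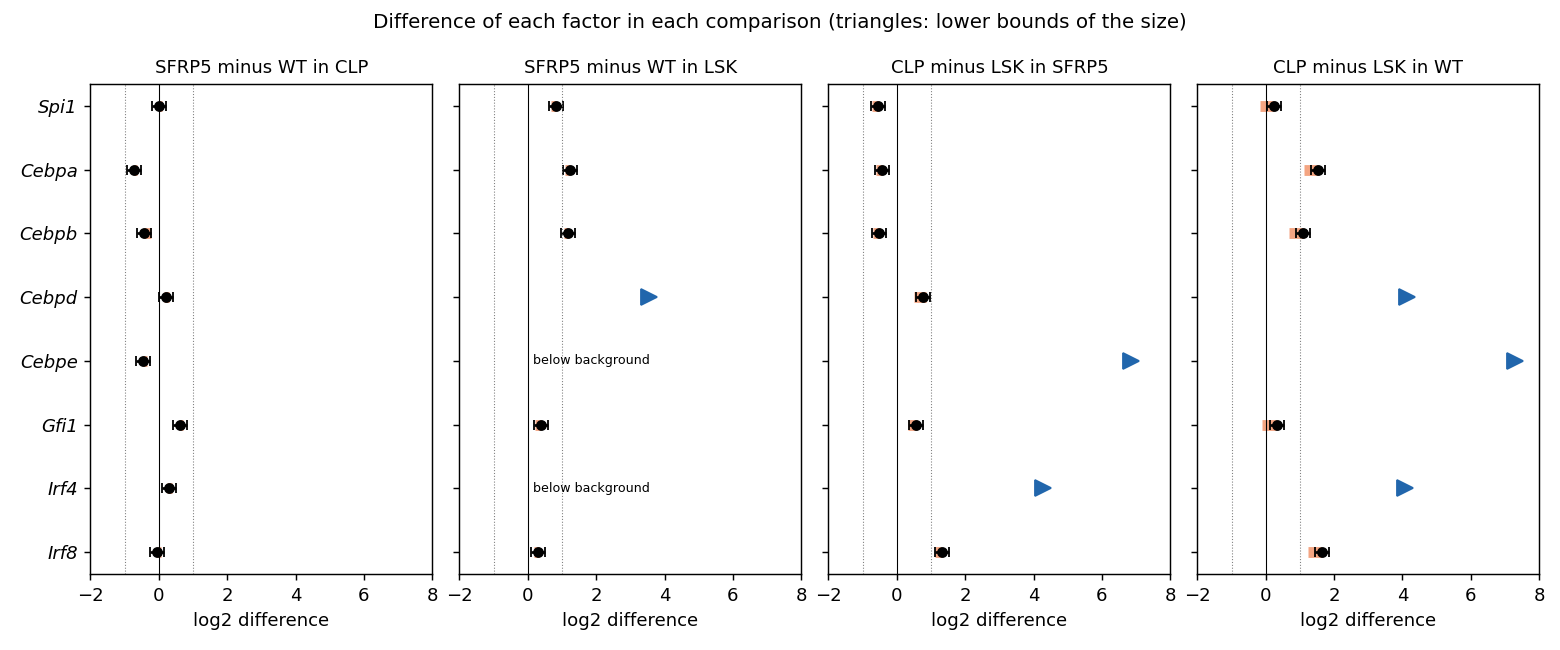
Log2 difference of each factor in the 4 comparisons, first-named array minus the second. Black points with bars are measured differences with the scanner's error, orange bands are their range over the alternative settings, blue triangles are lower bounds of the size, and dotted lines mark 2-fold. Cebpa and Cebpb lie past 2-fold in LSK between genotypes and in WT between sorts, while no factor does so between genotypes in CLP. The band of Cebpb between sorts in WT reaches below 2-fold.

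Spi1, the gene of PU.1, stood at 1.14 in SFRP5 CLP, 1.14 in WT CLP, 1.70 in SFRP5 LSK and 0.89 in WT LSK. The CLP arrays were level with each other (difference 0.01, and from -0.00 to 0.11 over the alternative settings), and SFRP5 LSK stood above the other 3 arrays. Spi1 was 1.75-fold higher in SFRP5 LSK than in WT LSK, a log2 difference of 0.81, and 9.92% of all genes had a difference at least as high. Between sorts it was lower in CLP in SFRP5 mice, at -0.55, and in WT mice the difference was 0.25, little above the scanner's error, and -0.16 at its lowest with another scaling.

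Of 15 genes chosen as textbook targets of PU.1, all were measured in every comparison, and most lay within 2-fold between genotypes. In LSK 1 was at least 2-fold higher in SFRP5 and none lower (median 0.15, and 0.02 in the authors' scaling), and in CLP none was higher and 1 lower (median 0.02, and 0.12 in the authors' scaling). Over all genes, 6.57% were 2-fold higher in SFRP5 in LSK (13.7% in either direction) and 4.25% in CLP (8.56%). Il7r, the interleukin-7 receptor chain that is also a gate of the CLP sort, was higher in SFRP5 LSK by 1.40. Lyz2, the lysozyme of myeloid cells, was lower in SFRP5 CLP, at -1.12, a difference that shrank to -0.62 at its smallest with another scaling.

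Between the sorts the PU.1 targets went both ways. In SFRP5 mice 4 were at least 2-fold higher in CLP and 2 lower (median 0.31, and 0.12 in the authors' scaling). In WT mice 5 were higher and 1 lower (median 0.19, or -0.23 in the authors' scaling). Over all genes, 11.5% were 2-fold higher in CLP in SFRP5 (22.5% in either direction) and 17.8% in WT (32.1%). Fcgr3, which encodes a low-affinity Fc receptor, was highest of the list in both genotypes, by 3.35 in SFRP5 and 3.08 in WT. Cybb, the catalytic subunit of the phagocyte oxidase, was higher in CLP by 2.28 in SFRP5 and 2.05 in WT, and Il7r by 2.24 in SFRP5 and 3.03 in WT. Fcer1g, the shared signalling chain of Fc receptors, was higher by 2.05 in SFRP5 and 1.84 in WT. Tyrobp, a signalling adaptor of myeloid receptors, was higher by 1.5 in WT (0.97 at its smallest) and by 0.59 in SFRP5. Flt3, the receptor of multipotent progenitors, was lower, at -2.78 in SFRP5 and -2.71 in WT, and Lyz2 at -2.34 in SFRP5 alone at 2-fold. Next lowest in WT was Csf3r, at -0.43.

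Cebpa, needed to form granulocyte-monocyte progenitors, stood at 1.67 in SFRP5 CLP, 2.40 in WT CLP, 2.10 in SFRP5 LSK and 0.88 in WT LSK. WT CLP was highest and WT LSK lowest, and the SFRP5 arrays lay between them. Cebpa was 2.33-fold higher in SFRP5 LSK than in WT LSK (log2 difference 1.22, from 1.09 to 1.22 over the alternative settings, and 3.89% of all genes were at least as high). In CLP it was lower in SFRP5, at -0.73, where 8.64% of genes were at least as low. In WT mice it was 2.88-fold higher in CLP than in LSK (log2 difference 1.53), whereas in SFRP5 mice it was lower in CLP, at -0.43.

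Cebpb, a factor of macrophages and emergency granulopoiesis, followed the same order except at the top. Its levels were 1.62 in SFRP5 CLP, 2.04 in WT CLP, 2.13 in SFRP5 LSK and 0.96 in WT LSK. SFRP5 LSK and WT CLP differed by less than the scanner's error, and WT LSK was again lowest. Cebpb was 2.26-fold higher in SFRP5 LSK than in WT LSK (log2 difference 1.18, from 1.05 to 1.18 over the settings). In CLP the genotype difference was -0.42. Between the sorts it was 2.12-fold higher in CLP in WT mice (log2 difference 1.08), a call that ended with normexp (0.87), quantile (0.83), cyclic loess (0.79) and the authors' scaling (0.67), and lower, at -0.52 in SFRP5 mice.

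The 7 genes listed downstream of C/EBPα hold primary granule proteins and receptors. In LSK 2 reached 2-fold upwards in SFRP5 and none was lower (median 0.64), and in CLP none reached 2-fold (median 0.19). Over all genes 6.57% were 2-fold higher in LSK, and 8.56% reached 2-fold in CLP in either direction. Elane, the neutrophil elastase gene, stood at 5.03 in SFRP5 CLP, 4.61 in WT CLP, 0.42 in SFRP5 LSK and -1.36 in WT LSK, and was higher in SFRP5 LSK by 1.78. Prtn3, which encodes proteinase 3, was higher there by 1.16 (0.87 at its smallest with another scaling). Csf3r, the receptor of granulocyte colony-stimulating factor, was the lowest in that comparison at -0.34.

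The same list separated the sorts in both genotypes, with 4 of 7 members at least 2-fold higher in CLP and 2 lower in each. Its median was 1.91 in SFRP5 and 2.56 in WT. Of all genes, 11.5% in SFRP5 and 17.8% in WT were 2-fold higher in CLP. Elane was higher in CLP by 4.60 in SFRP5 and 5.97 in WT, Ctsg (cathepsin G) by 3.99 and 4.60, Mpo (myeloperoxidase) by 2.04 and 2.56, and Prtn3 by 1.91 and 3.17. Sox4, which C/EBPα represses, was lower, at -1.59 in SFRP5 and -1.71 in WT, and the interleukin-6 receptor gene Il6ra at -1.30 and -1.35. Markers of granulocyte-monocyte progenitors, 5 of whose 8 members are in this list, had 6 of 8 at least 2-fold higher in CLP in SFRP5 and 7 of 8 in WT.

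Cebpd, known for its induction in the acute-phase response, stood at -0.47 in SFRP5 CLP, -0.67 in WT CLP and -1.25 in SFRP5 LSK, and was not well above background in WT LSK, where its level as measured was -5.01. The intensities behind these levels were 210.0 in SFRP5 CLP, 143.3 in WT CLP and 116.8 in SFRP5 LSK, against 8.58 in WT LSK. The WT LSK array thus stands apart from the other 3. By its bounds, Cebpd was higher than in WT LSK by at least 11.6-fold in SFRP5 LSK and by at least 17.5-fold in WT CLP; with normexp, whose offset raises dim signals, these bounds were 2.97-fold and 3.83-fold. In CLP the genotypes differed by 0.20, within the scanner's error, and in SFRP5 mice CLP was above LSK by 0.78.

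Of 10 acute-phase and inflammatory genes tied to C/EBPβ and C/EBPδ, 6 were measured in each comparison. In LSK 1 was at least 2-fold higher in SFRP5, the haptoglobin gene Hp at 1.97, and 1 was lower, the cytokine gene Il1b at -2.09 (-0.65 at its smallest). In CLP Tnfaip3 (1.28) and Nfkbiz (1.13), both regulators of NF-κB signalling, were higher in SFRP5 and Il1b was lower at -1.01. Nfkbiz was 0.30 and Il1b -0.46 at their smallest with another scaling. Of all genes, 13.7% in LSK and 8.56% in CLP reached 2-fold in either direction. Saa3 and Orm1, which encode acute-phase proteins, were not well above background on any array. Between the sorts Hp was higher in CLP by 3.89 in SFRP5 and 5.45 in WT, Socs3 was lower, at -1.71 and -2.35 and Nfkbiz at -1.99 and -2.94. Socs3 shrank to -0.64 in SFRP5 and -0.89 in WT at its smallest. Lcn2 (1.05, and 0.87 at its smallest) and Tnfaip3 (1.29) were also 2-fold higher in CLP in SFRP5.

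Cebpe, the factor of late granule formation, was bright in CLP and not well above background in LSK. Its levels were 2.04 in SFRP5 CLP and 2.49 in WT CLP, and its LSK spots were not well above background, with intensities of 2.68 in SFRP5 LSK and 7.42 in WT LSK against 1195 in SFRP5 CLP and 1278 in WT CLP. Cebpe was at least 115-fold higher in CLP than in LSK in SFRP5 mice and at least 156-fold higher in WT mice, or at least 15.6-fold and 19.6-fold with normexp. The genotypes differed in CLP by -0.45.

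Secondary and tertiary granule genes downstream of C/EBPε went both ways. Of 6, 4 were measured on both arrays between sorts, and 1 was at least 2-fold higher and 1 lower in CLP in SFRP5 (median 0.35, and 0.06 with normexp), against 2 higher and none lower in WT (median 1.18, and 0.76 in the authors' scaling). The share of all genes 2-fold higher in CLP was 11.5% in SFRP5 and 17.8% in WT. Ngp, a neutrophil granule protein gene, stood at -0.95 in SFRP5 CLP, 0.56 in WT CLP, 0.05 in SFRP5 LSK and -3.79 in WT LSK. It was therefore higher in CLP in WT, by 4.35, and lower in CLP in SFRP5, at -1.01 (-0.79 at its smallest). Camp, the cathelicidin gene, was higher in CLP by 1.68 in WT and differed by -0.07 in SFRP5, with a change of sign under another scaling, and Lcn2 differed by 1.05 in SFRP5 and 0.68 in WT. Ltf, which encodes lactoferrin, was at least 2-fold higher in WT CLP by a bound of 2.53, and Mmp8, the neutrophil collagenase gene, in SFRP5 CLP by a bound of 3.28. Mmp9 was not well above background on any array.

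Between genotypes the same list had 2 of 5 measured members at least 2-fold lower in SFRP5 CLP and none higher, Camp at -2.04 and Ngp at -1.52. In LSK 1 of 3 was higher, Ngp at 3.84, with Ltf higher by a bound of 1.35 and Mmp8 lower by a bound of -2.73. Over all genes 8.56% reached 2-fold in CLP and 13.7% in LSK, in either direction. The eosinophil markers, mature products of a lineage that also needs C/EBPε, were at least 2-fold higher in CLP in 6 of 6 members in SFRP5 and 5 of 6 in WT. Their median differences were 5.02 in SFRP5 and 6.47 in WT. The share of all genes 2-fold higher in CLP was 11.5% in SFRP5 and 17.8% in WT. Epx, the eosinophil peroxidase gene, was highest of the list in SFRP5, at 5.46 (7.43 in WT), and Prg2, the major basic protein gene, was highest in WT, at 7.62 (4.97 in SFRP5).

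Gfi1 was well above background on all arrays, at 3.62 in SFRP5 CLP, 3.0 in WT CLP, 3.04 in SFRP5 LSK and 2.66 in WT LSK. SFRP5 CLP was highest, and WT CLP and SFRP5 LSK were level within the scanner's error. No difference reached 2-fold. The SFRP5 arrays were higher by 0.61 in CLP, where 10.6% of genes were at least as high, and by 0.38 in LSK. CLP was higher than LSK by 0.57 in SFRP5 and by 0.34 in WT, and the WT difference turned to -0.12 with quantile, -0.09 with cyclic loess and -0.07 in the authors' scaling.

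Of 9 genes that GFI1 is known to repress, all were measured. In LSK 1 was at least 2-fold higher in SFRP5, Id2 at 1.48 (0.69 at its smallest), and in CLP 1 was lower, Egr2 at -1.07 (-0.53 at its smallest). Over all genes 6.57% were 2-fold higher in LSK, and 8.56% reached 2-fold in CLP in either direction. Id2 encodes an inhibitor of E proteins and Egr2 a zinc finger factor of macrophages. Between sorts 3 were higher and 3 lower in CLP in SFRP5 (median -0.37, and -0.56 in the authors' scaling), and 3 higher and 2 lower in WT (median -0.09, and -0.51 in the authors' scaling). Of all genes, 22.5% in SFRP5 and 32.1% in WT reached 2-fold in either direction. The stem cell factors Meis1 (-3.41 in SFRP5 and -3.51 in WT) and Hoxa9 (-2.41 and -2.82) were lower in CLP in both genotypes, and Egr2 was lower, at -2.43 in SFRP5. The erythroid and megakaryocytic relative Gfi1b was higher by 2.16 in SFRP5 and 1.95 in WT, Id2 by 1.17 and 2.71, and Csf1, which encodes the macrophage growth factor, by 1.03 and 1.49. Csf1 shrank to 0.33 in SFRP5 and 0.56 in WT, and Id2 to 0.83 in SFRP5, at their smallest.

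Irf4 was also well above background in CLP alone. Its levels were -0.42 in SFRP5 CLP and -0.71 in WT CLP, from intensities of 217.9 in SFRP5 CLP and 139.2 in WT CLP, against 10.8 in SFRP5 LSK and 2.76 in WT LSK, both not well above background. Irf4 was at least 19.2-fold higher in CLP than in LSK in SFRP5 mice and at least 17.0-fold higher in WT mice, or at least 2.85-fold and 2.80-fold with normexp. The genotypes differed in CLP by 0.29.

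Irf8 stood at 1.78 in SFRP5 CLP, 1.82 in WT CLP, 0.47 in SFRP5 LSK and 0.17 in WT LSK. Both CLP arrays lay above both LSK arrays, with a difference of 1.31 (2.48-fold) in SFRP5 and 1.66 (3.15-fold) in WT, which stayed past 2-fold in the alternative settings (1.12 at the lowest in SFRP5 and 1.24 in WT). In SFRP5 6.83% of all genes had a difference at least as high, and in WT 6.32%. Between genotypes Irf8 differed by -0.05 in CLP, with a change of sign to 0.05 under another scaling, and by 0.30 in LSK.

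Of 8 genes listed downstream of IRF8 or IRF4, 7 were measured between the sorts. In SFRP5 2 were at least 2-fold higher in CLP and none lower (median 0.45, and 0.26 in the authors' scaling), and in WT 3 were higher and 1 lower (median 0.95, and 0.53 in the authors' scaling). The share of all genes 2-fold higher in CLP was 11.5% in SFRP5 and 17.8% in WT. Ly86, which encodes the MD-1 partner of a B cell and macrophage receptor, was higher in CLP by 2.64 in both genotypes. Cybb, also listed under PU.1, was higher as given above, and Klf4, a monocyte factor downstream of IRF8, was higher by 1.31 in WT (0.90 at its smallest). Prdm1, the plasma cell factor gene, was lower, at -1.12 in WT. Batf3, a dendritic cell factor gene, was well above background in CLP alone, with bounds of 1.94 in SFRP5 and 0.29 in WT.

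Between genotypes Klf4 was the IRF-linked gene at least 2-fold higher in SFRP5 in both sorts, at 1.64 in CLP and 2.50 in LSK. Klf4 is also an immediate early gene in many cells. In CLP 2 of 8 members were higher and 1 lower (median 0.64, and 0.35 with normexp), Batf3 at 1.64 (0.28 with normexp at its smallest) and Ikzf3, the lymphoid factor Aiolos, at -1.05 (-0.65). In LSK Klf4 was the 1 of 7 that reached 2-fold (median 0.55, and 0.31 with normexp), and the lowest were Prdm1 at -0.88 and Ikzf3 at -0.62. Over all genes 8.56% reached 2-fold in CLP and 13.7% in LSK, in either direction.

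The other members of the same families showed no common direction. Of 12 relatives, 1 was 2-fold or more higher on the SFRP5 CLP array, the B cell factor gene Spib at 1.36, and 1 lower, the interferon response factor gene Irf7 at -1.90. In LSK 1 of 11 was higher, Spic, a PU.1-related gene of red pulp macrophages, at 1.67 (0.75 at its smallest), while Spib was lower in SFRP5 LSK by a bound of -2.45. Over all genes 8.56% reached 2-fold in CLP and 13.7% in LSK, in either direction. Between sorts in SFRP5 Gfi1b was higher in CLP (2.16), Spib was higher by a bound of 5.69, and Spic (-2.20), Irf7 (-1.60) and Irf2 (-1.22) were lower. In WT Gfi1b (1.95), Spib (1.88) and Ddit3 (1.18) were higher and Irf1 (-1.79) was lower. Between sorts 22.5% of all genes in SFRP5 and 32.1% in WT reached 2-fold in either direction. Spic and Irf7 fell just short of 2-fold in SFRP5 at their smallest, at -0.996 and -0.97, and Ddit3 in WT, at 0.77.

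Genes of partners, antagonists and corepressors were measured as 16 in CLP and 15 in LSK. In LSK 5 reached 2-fold upwards in SFRP5 and none was lower (median 0.49, and 0.31 with cyclic loess): Batf (1.61), the demethylase gene Kdm1a (1.16) and its corepressor Rcor1 (1.14), both partners of GFI1, the AP-1 gene Jun (1.04) and the E protein gene Tcf3 (1.002). Rcor1, Jun and Tcf3 lost 2-fold with another scaling. The share of all genes 2-fold higher in SFRP5 was 6.57% in LSK and 4.25% in CLP. In CLP 3 were higher and none lower (median -0.10, and 0.05 with quantile), Batf3 as above, Trib1, whose product sends C/EBPα for degradation, at 1.29 (0.94 at its smallest), and Jun at 1.13. Between sorts Gata1, the erythroid factor gene and antagonist of PU.1, was higher in CLP by 4.74 in SFRP5 and 4.58 in WT. The erythroid marker list, which includes Gata1 itself, had 8 of 8 measured members at least 2-fold higher in CLP in both genotypes. Across all genes the share 2-fold higher in CLP was 11.5% in SFRP5 and 17.8% in WT. Cop1 (1.25 in SFRP5 and 1.39 in WT), a ligase that acts with Trib proteins, was also higher in CLP, Batf was lower in SFRP5 (-1.96), and Tcf3 (2.19), Rcor1 (1.30) and Hdac1 (1.25) were higher in WT. In WT, Cop1, Rcor1 and Hdac1 lost 2-fold with another scaling.

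**Figure D3:**
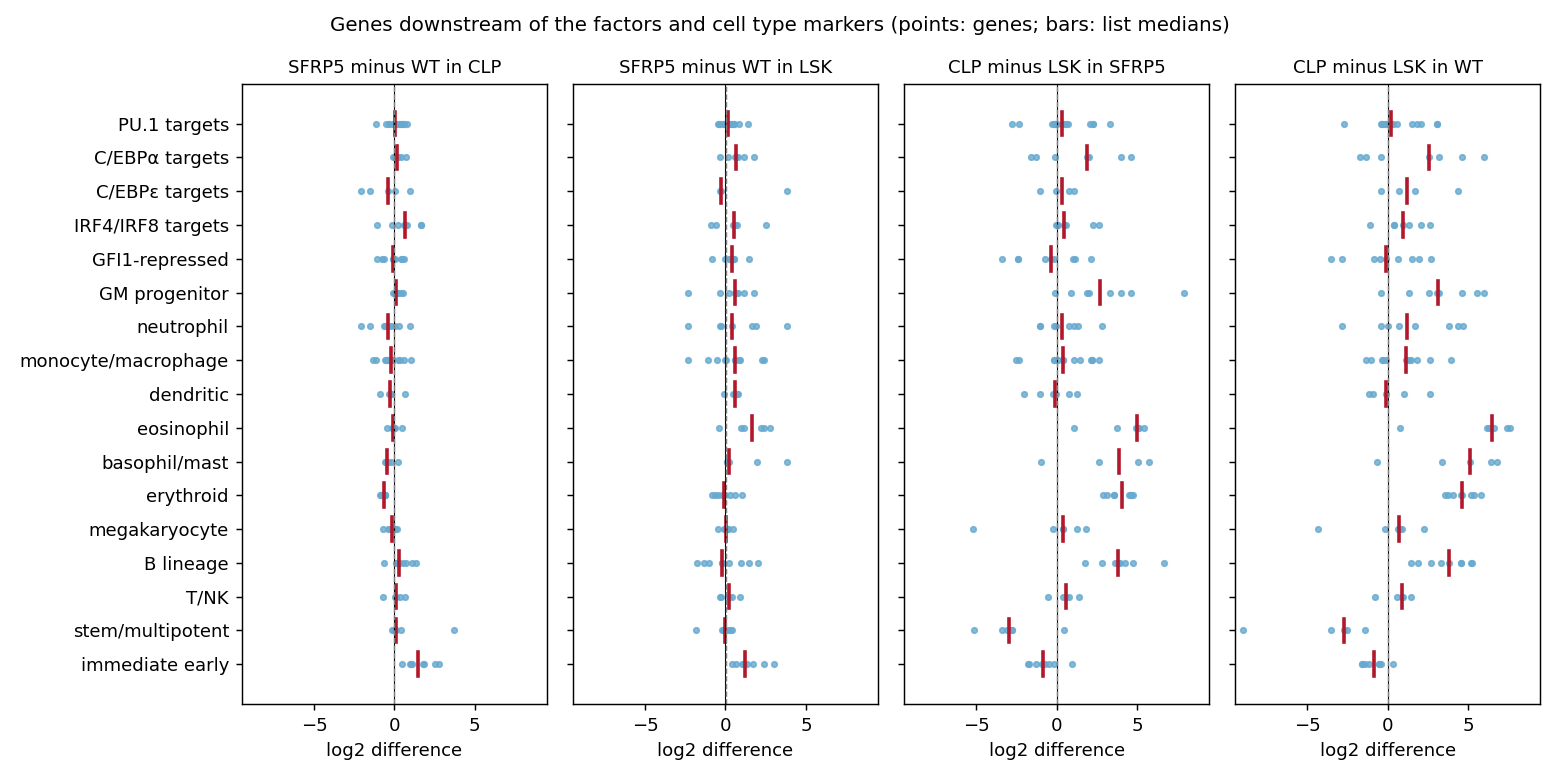
Log2 differences of genes downstream of the factors and of cell type markers in the 4 comparisons. Each blue point is a gene well above background on both arrays, red bars are list medians, and the dashed line is the median of all genes. Erythroid, eosinophil and B lineage lists lie far to the right between sorts in both genotypes, and immediate early genes lie to the right between genotypes in both sorts.

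Neutrophil and monocyte markers went both ways between the sorts. Neutrophil markers had 3 of 8 measured members at least 2-fold higher in CLP and 2 lower in SFRP5 (median 0.35, and 0.06 with normexp). In WT 4 of 8 were higher and 1 lower (median 1.18). Monocyte and macrophage markers had 6 of 13 higher and 2 lower in SFRP5 (median 0.42). In WT 6 of 11 were higher and 2 lower (median 1.16, and 0.45 with normexp). Markers of other lineages also differed between the sorts. Besides the erythroid and eosinophil lists, 9 of 9 measured B lineage markers were at least 2-fold higher in CLP in both genotypes (median 3.85 in SFRP5 and 3.83 in WT). Basophil and mast cell markers had 3 of 4 higher in SFRP5 (median 3.86) and 4 of 5 in WT (median 5.14). By a bound, 3 more were 2-fold higher in SFRP5 and 2 more in WT. Mcpt4 of this list was lower in CLP, by a bound of -4.29 in SFRP5 and -0.31 in WT. Gata2 was lower by less than 2-fold, at -0.98 in SFRP5 and -0.68 in WT. Of all genes, 11.5% in SFRP5 and 17.8% in WT were 2-fold higher in CLP. Stem cell and multipotent progenitor markers had none higher and 5 of 6 lower in CLP in SFRP5 (median -2.94) and 5 of 5 lower in WT (median -2.71). Among all genes measured, 1729 of 15710 in SFRP5 and 2288 of 16015 in WT were 2-fold lower in CLP. Between genotypes in CLP, 1 of 5 measured stem cell and multipotent progenitor markers was at least 2-fold higher in SFRP5, Hlf at 3.71. None was lower (median 0.08), and 4.25% of all genes were 2-fold higher there. Procr was higher in SFRP5 CLP by a bound of 4.20. Dendritic cell markers had medians of -0.12 in SFRP5 (-0.30 to -0.11 over the scalings) and -0.09 in WT (-0.67 to -0.09). Megakaryocyte markers had medians of 0.40 in SFRP5 (0.22 to 0.47) and 0.69 in WT (0.27 to 1.02), and T and NK markers 0.58 in SFRP5 (0.21 to 0.65) and 0.90 in WT (0.36 to 0.96). The part of any of these cell types in the differences of the factors was not tested.

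Set side by side, the genotype differences of some factors had opposite signs in the 2 sorts. Of the 5 factors measured on all 4 arrays, Cebpa, Cebpb and Irf8 were lower in SFRP5 CLP and higher in SFRP5 LSK, each against WT. Among 15180 genes 53.0% also had opposite signs, in this order or the reverse. For Irf8 the difference in CLP was within the scanner's error, and its sign turned under another scaling. The difference between the genotype differences, CLP less LSK, was -1.95 for Cebpa, -1.60 for Cebpb, -0.80 for Spi1, -0.35 for Irf8 and 0.23 for Gfi1, with a scanner error of 0.289 for each. Cebpa and Cebpb were thus among the 22.6% of genes in which it reached 2-fold in size. With 1 array per group it has no test.

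**Figure D4:**
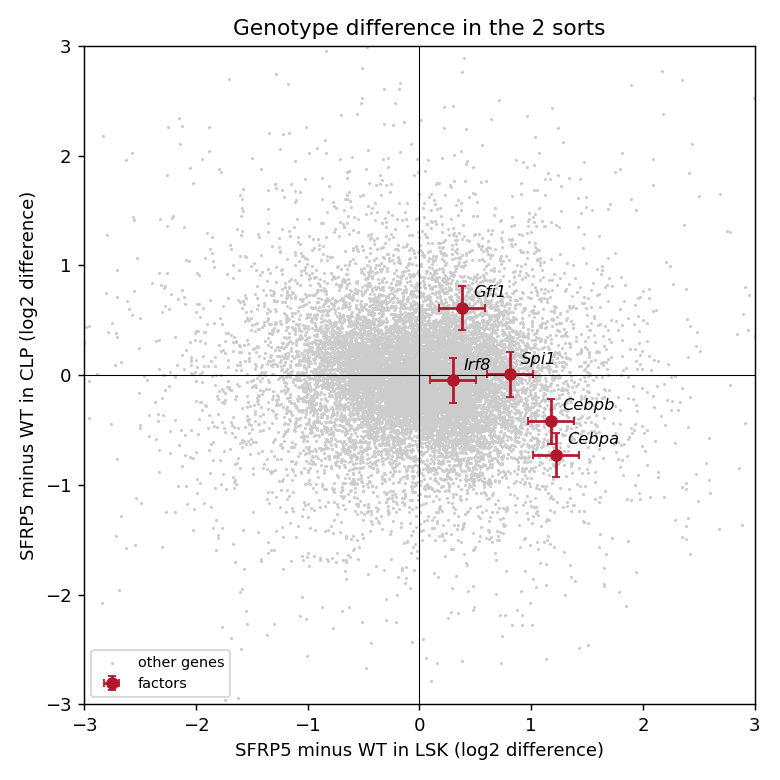
Genotype difference (SFRP5 minus WT, log2) in LSK on the horizontal axis and in CLP on the vertical axis, for genes well above background on all 4 arrays. Grey points are other genes, of which 42 of 15180 lie outside the frame, and red points with the scanner's error are the 5 factors; Cebpa and Cebpb lie in the lower right part, higher in SFRP5 LSK and lower in SFRP5 CLP.

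The genes with the pattern most like a factor's were sought for Cebpa, Cebpb and Irf8, which were measured on all 4 arrays and ranged over at least 1 log2 unit. Likeness was the Euclidean distance between the 4 levels, each centred on its own mean, among 13202 named genes measured on all arrays. Nearest to Cebpa were Nudt1 (distance 0.11) and Tonsl (0.11), nearest to Cebpb were Tceanc2 (0.03) and Cd3eap (0.06), and nearest to Irf8 were Ppp1r15b (0.05) and Nadk2 (0.05). Within a distance of 0.5 lay 242 genes for Cebpa, 426 for Cebpb and 689 for Irf8, so with 4 arrays many genes share each pattern.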

How the data were processed

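The 4 scanner files, deposited by the authors, hold 1-colour spot intensity, background-subtracted with Agilent Feature Extraction on an mm9 grid; its version is 10.10 in the submitters' processing notes and 10.10.1.1 per the file headers. The authors' deposited signal table holds the same intensity times 1 factor per array and was an alternative; the sources used here do not say how these were set.

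The processed intensity of spots without an outlier flag was put on the log2 scale, less the 75th percentile of its array, and spots of a probe were averaged. The probe with the highest mean stood for a gene (each factor has 1). Symbols were updated through the Entrez IDs of 30994 of 33325 probes with a symbol. Comparisons are differences of 2 arrays counted at 2-fold, with no test. Python 3.11.15, pandas 2.3.3 and limma 3.58.1 were used, and the counting steps were tested on simulated data.

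Alternatives were normexp (offset 50; on the median spot signal, as no mean signal is in the files), quantile, cyclic loess, the authors' table, 2 filters on dim probes and the mean of a gene's probes. "At its smallest" gives the value nearest 0 over the first 4. The text names all 8 factors, the 2 highest and 2 lowest genes of a list in a comparison or those at 2-fold in lists of relatives, partners and downstream genes, and the 2 genes most like a factor. The factors, lists and motifs were chosen with earlier results of these data known.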

Additional observations from a re-analysis of the deposited data

Results flagged for a closer look

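Of the 5 factors measured on every array, 3 had genotype differences of opposite signs in the 2 sorts. Of these 3, only Cebpa and Cebpb had both differences beyond the scanner's error. Cebpa was lower in SFRP5 than in WT in CLP (-0.73) and higher in LSK (1.22), a difference between the sorts of -1.95 on the log2 scale. For Cebpb the values were -0.42 in CLP and 1.18 in LSK, a difference of -1.60. For Irf8 they were -0.05 in CLP and 0.30 in LSK, a difference of -0.35. Its value in CLP was within the scanner's error of 0.204, and its sign there turned under another scaling. With 1 array per group these differences were not tested. Among 15180 genes, 53.0% also had opposite signs in the 2 sorts, so opposite signs alone do not set the factors apart.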

How the results depend on the processing

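No difference at 2-fold turned its direction. No paired analysis was possible because each group has 1 array. The slide could not be a block, since all arrays lie on 1 slide. For the sorts in WT, the median over the factors (1.08) was 0.87 with normexp, 0.83 with quantile, 0.79 with cyclic loess, 0.67 in the authors' table and 1.59 with no filter on dim probes. In SFRP5 that median (0.07) was 0.68 with no filter and -0.43 over genes measured on all 4 arrays. The count of factors at 2-fold between genotypes in LSK was 5 with no filter (4 higher, 1 lower) in place of 3. Over genes measured on all 4 arrays it was 1 in place of 3 between sorts in SFRP5 and 3 in place of 6 in WT, since that filter leaves out Cebpd, Cebpe and Irf4. Of the differences of single factors, 153 values kept a 2-fold call or moved by less than the scanner's error, 7 moved by more and 4 fell below 2-fold. The 153 include the 2 filters on dim probes and the mean of a gene's probes, which cannot change the difference of a single factor. All of the 7 and the 4 arose with normexp, quantile, cyclic loess or the authors' table. Of the 32 levels, 25 moved by more than the scanner's error with normexp, 6 with quantile, 5 with cyclic loess and none in the authors' table, whose factor per array leaves them as they are. The mean of a gene's probes leaves the factors as they are. The authors' scaling shifts the median of all genes by -0.41 between sorts in WT, -0.19 in SFRP5 and -0.13 between genotypes in LSK. It leaves 33.4% of the genes called between genotypes in LSK higher in SFRP5, against 47.8% in the main setting, 62.8% with normexp, 59.1% with quantile, 63.4% with cyclic loess and 35.9% with no filter. Between sorts 26.6% of those called in WT are then higher in CLP against 55.5% (66.1% with normexp), and 37.6% in SFRP5 against 51.1%. Between genotypes in CLP 60.1% are then higher in SFRP5 against 49.7%. Signal over background limits Cebpd, Cebpe and Irf4 in LSK, where only bounds can be given.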
